A study of Mus musculus with 2 samples.

Results

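The genes described here are 44 genes of fatty acid, wax and lipid droplet metabolism, chosen as a list by function and found with the same identifiers in both feature tables, which hold 31054 features for the normal and 32285 for the wounded library. They were followed in single cells of the mouse anorectal junction, where the stratified epithelium of the anal canal meets the simple epithelium of the rectum at the transition zone. Both libraries came from K17CreERT2;R26RGFP mice of strain C57/BL6J, in which a Cre recombinase under the Keratin 17 promoter switches on a green fluorescent reporter (a Rosa26-lsl-ZsGreen1 allele), and the mice of both libraries received tamoxifen, 2 injections before the wound in the wounded ones, to mark transition zone cells. The normal library was made from unwounded mice and the wounded library from mice 1 week after a wound by hot EDTA and brushing, a treatment that strips rectal crypts beside the transition zone. For the normal library at least 5 mice were pooled, and the same sorting strategy, based on Epcam, an epithelial surface protein, was followed after the wound, without a number of mice given for that library. Mice for wounding were 2 to 4 months old, mice for tracing in normal and injured tissue are also given as 6 to 8 weeks old, and which of these ages holds for the unwounded mice sequenced is not stated. With 1 library a condition there was no replicate check and no p-value was computed.

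Fatty acids are built from citrate-derived acetyl-CoA, desaturated and elongated, activated as acyl-CoA esters, and then joined to glycerol as triglycerides or to fatty alcohols as wax esters, which are stored in droplets coated with perilipins and CIDE proteins. Sebaceous and related modified glands of the skin, such as preputial and meibomian glands, fill their cells with such droplets and release them by disintegration of the whole cell (holocrine secretion). PPARγ and SREBP1 are transcription factors known to direct much of this programme in glands and fat.

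The authors named 4 clusters among 939 deposited cells of the normal library (Anal Canal, Basal, Suprabasal and Rectum) and 6 clusters among 4147 deposited cells of the wounded library (Basal, Suprabasal, Regeneration, Wound_Stress, Rectum and Hybrid), after removing glands, hair follicles and fibroblasts. The cells that passed the stated filters but carried no deposited name numbered 610 and 1078. They were clustered anew without the 44 genes, and 334 normal and 420 wounded cells were called gland-like from 10 anal gland markers. That list was drawn from the normal cells of these same data and so is not independent of them. The other left-out cells were hair follicle-like (190 and 310 cells), fibroblast-like (36 and 204), smooth muscle or pericyte-like (30 and 117) and endothelial-like (18 and 27). The markers gave the gland-like cells a summed level of 7748 and 11213 CPM (counts per 1000000 UMIs), against 838 to 2373 in the normal and 753 to 5647 in the wounded deposited clusters. No UMI of Adipoq, a defining marker of fat cells, was found in any of these groups, while Retn, of the same list, reached 60.0 CPM in normal and 125 CPM in wounded gland-like cells. The filters removed 1003 normal and 11900 wounded barcodes for mitochondrial UMIs. The libraries had 1 barcode in common and none among the deposited cells.

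Levels are pooled over cells, as all UMIs a gene has in a group divided by those of all genes there, in CPM. Each counted molecule is tagged near its 3′ end, so no correction for gene length was needed. A level of 100 CPM had an exact 95% Poisson interval of 77.5 to 126 CPM in the smallest deposited cluster (normal Rectum, 704191 UMIs) and of 94.6 to 106 CPM in the deepest (Regeneration, 13004220 UMIs), and 0 UMIs allowed up to 4.26 and 0.23 CPM (3 UMIs). Differences are log2 ratios of 2 levels, with an exact 95% binomial interval in brackets. A gene was called past 2-fold where this ratio was at least 1 in size and its interval left out 0, among genes with at least 20 UMIs in both groups together. All intervals cover counting error only, not variation between mice, and those of levels and ratios do not cover variation between cells.

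**Figure D1:**
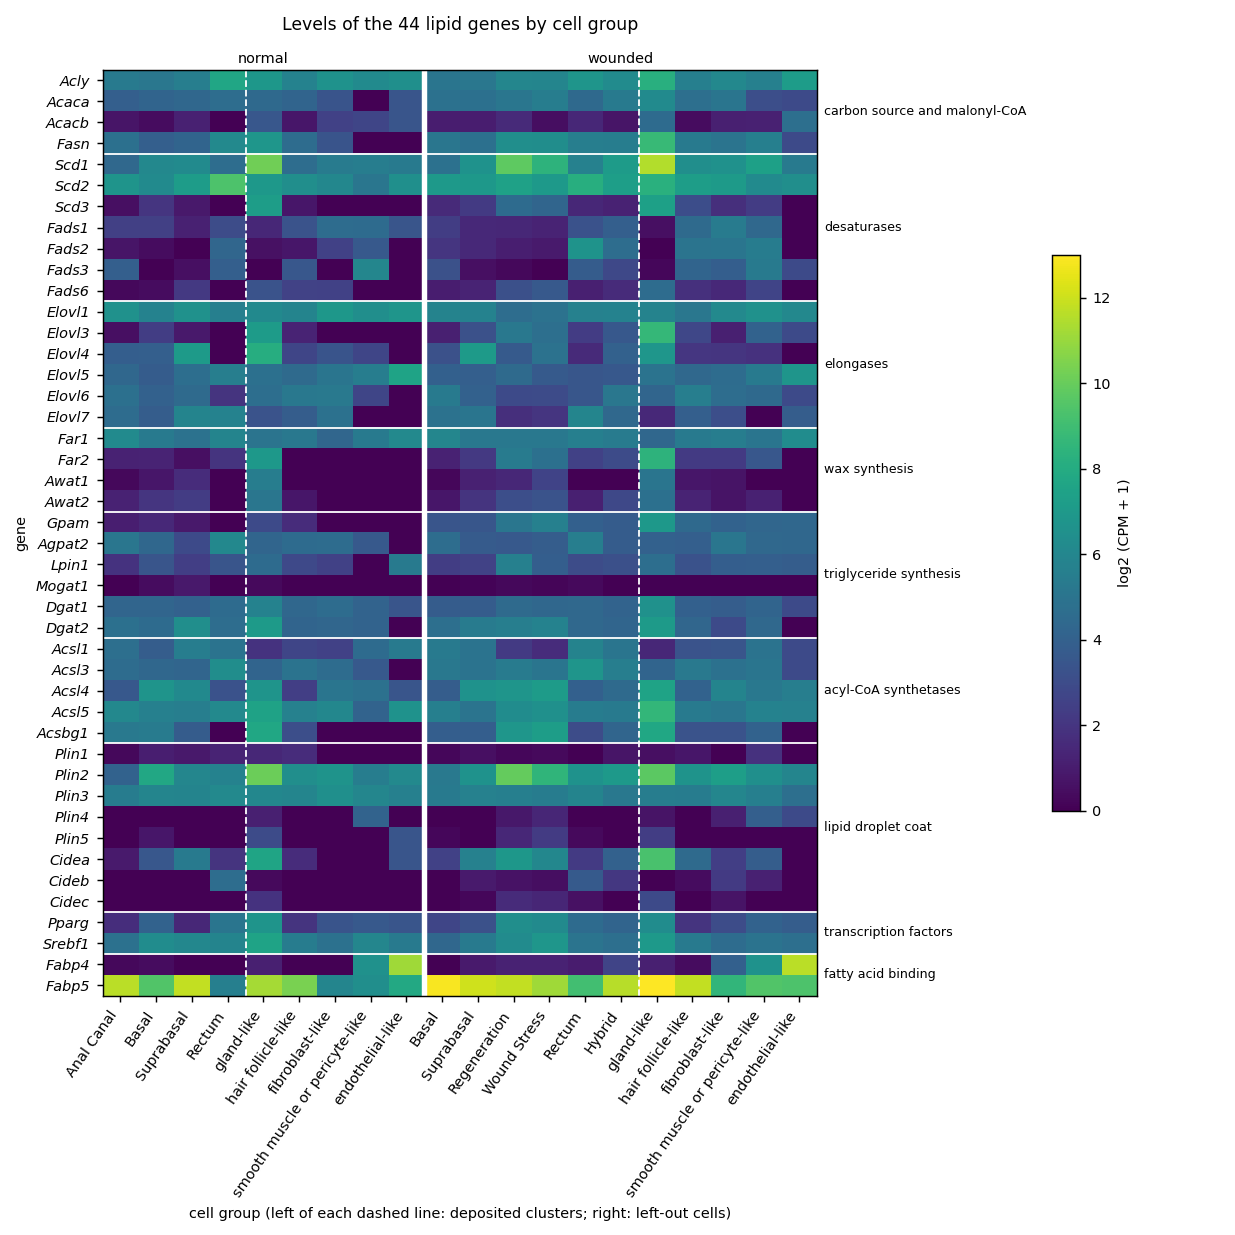
Heat map of the 44 genes (rows, grouped by role) in the deposited clusters and the left-out groups (columns) of the normal and wounded libraries, as log2(CPM + 1) of the summed UMIs. Gland-like cells carry the highest levels of Scd1 (1179.8 and 2921 CPM), and in the wounded library Regeneration and Wound_Stress follow them.

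Most of the measured genes were higher in gland-like cells. In the normal library 23 of the 37 genes with enough UMIs were past 2-fold higher in gland-like than in deposited cells, where 7.97% of all genes were, and 4 were past 2-fold lower, where 17.8% of all genes were. In the wounded library 24 of 42 were higher, against 5.09% of all genes, and 8 lower, against 25%. The median log2 ratio was 1.81 over the measured members and -0.06 over all genes in the normal library, and 1.17 and -0.29 in the wounded one. The same 21 genes were called higher and the same 4 lower in both libraries, and the share of all genes called alike in both was not counted. A rare gene could reach 20 UMIs only through the group where it was high, so these counts describe the measured genes. The authors had removed the gland cluster, which they named from lipid and steroid pathways. In tissue they also found Oil red O staining in glands below the transition zone. Perilipin-2, high in this cluster, marked those glands as protein. Lipid genes thus had a part in how the cells were divided, and the counts are a description of that division. Too rare in the normal library were Fads2, Mogat1, Plin1, Plin4, Cideb, Cidec and Fabp4, and in the wounded one Plin1 and Mogat1.

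Of the genes of acetyl-CoA and malonyl-CoA supply, Fasn is the fatty acid synthase (ENSMUSG00000025153, chr11:120805846-120824547 in GRCm38). In the normal library Fasn stood at 26.5 CPM in Anal Canal, 14 in Basal, 17.1 in Suprabasal, 69.6 in Rectum and 112 in gland-like cells. In the wounded library it stood at 33.1 CPM in Basal, 27.1 in Suprabasal, 86 in Regeneration, 81.2 in Wound_Stress, 45.5 in Rectum, 45.2 in Hybrid and 438 in gland-like cells. The gland-like cells were therefore the highest group in both libraries, with log2 ratios over deposited cells of 2.23 (2.0 to 2.46) and 2.93 (2.86 to 3.01). Acly, which splits citrate into acetyl-CoA, was highest in Rectum cells of the normal library and in gland-like cells of the wounded one. Its normal levels were 39.9 CPM in Anal Canal, 34 in Basal, 46 in Suprabasal, 204 in Rectum and 117 in gland-like cells. Its wounded levels were 32.6 CPM in Basal, 34.9 in Suprabasal, 61.3 in Regeneration, 59.2 in Wound_Stress, 109 in Rectum, 76.2 in Hybrid and 297 in gland-like cells. Acaca, the cytosolic acetyl-CoA carboxylase, varied little among normal groups, with 14.2 CPM in Anal Canal, 17.4 in Basal, 19.3 in Suprabasal, 24.1 in Rectum and 21.1 in gland-like cells. After the wound it was measured at 27.7 CPM in Basal, 26.5 in Suprabasal, 33.1 in Regeneration, 44.9 in Wound_Stress, 20.4 in Rectum, 40.5 in Hybrid and 72.9 in gland-like cells, and only there was it past 2-fold higher in gland-like cells, at 1.2 (1.05 to 1.35), against 0.32 (-0.07 to 0.70) in the normal library. Acacb, the carboxylase of the mitochondrial surface, was near the detection limit in the deposited clusters, with 0.68 CPM in Anal Canal, 0.37 in Basal, 1.31 in Suprabasal and 0 in Rectum, against 10.7 in gland-like cells. The wounded values were 1.05 CPM in Basal, 1.04 in Suprabasal, 1.92 in Regeneration, 0.40 in Wound_Stress, 1.7 in Rectum, 0.67 in Hybrid and 22 in gland-like cells, so the gland-like cells stood above every deposited cluster beyond the counting intervals. Among all wounded groups the endothelial-like left-out cells, with few UMIs in all, had the highest Acacb level.

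The desaturases split into gland genes and genes of other groups. Scd1, which places the first double bond in saturated fatty acids, was the enzyme of the list with the highest level in gland-like cells (ENSMUSG00000037071, chr19:44394455-44407879). Its normal levels were 20.3 CPM in Anal Canal, 65.1 in Basal, 74.5 in Suprabasal, 24.1 in Rectum and 1179.8 in gland-like cells, and its wounded levels were 27.7 CPM in Basal, 99.5 in Suprabasal, 861 in Regeneration, 337 in Wound_Stress, 51.8 in Rectum, 138 in Hybrid and 2921 in gland-like cells. Gland-like cells were highest in both, by log2 ratios of 4.72 (4.58 to 4.86) and 3.04 (3.01 to 3.07), and the lower wounded ratio went with Scd1 in Regeneration and Wound_Stress cells. Scd3, its neighbour at chr19:44203269-44244016 and a desaturase known from sebaceous glands, had 0.46 CPM in Anal Canal, 2.96 in Basal, 0.88 in Suprabasal, 0 in Rectum and 148 in gland-like cells. After the wound it had 1.92 CPM in Basal, 3.63 in Suprabasal, 22.5 in Regeneration, 17.8 in Wound_Stress, 1.7 in Rectum, 1.35 in Hybrid and 168 in gland-like cells. Scd3 was thus at or below 3.63 CPM in every deposited cluster but Regeneration and Wound_Stress, with log2 ratios of 6.95 (6.14 to 7.91) and 3.9 (3.75 to 4.06) for the gland-like cells. How reads common to the closely similar Scd genes were assigned is not given in the sources used here, so low Scd3 levels beside high Scd1 are uncertain.

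Scd2, which lies between these genes at chr19:44293674-44306864, had another order. It was measured at 104 CPM in Anal Canal, 73.9 in Basal, 143 in Suprabasal, 663 in Rectum and 119.8 in gland-like cells, so that Rectum led the normal library. In the wounded library it was measured at 126 CPM in Basal, 119 in Suprabasal, 175 in Regeneration, 125 in Wound_Stress, 282 in Rectum, 155 in Hybrid and 304 in gland-like cells. Gland-like cells were within 2-fold of the deposited cells in both libraries, at -0.27 (-0.42 to -0.12) and 0.98 (0.90 to 1.05). The polyunsaturated desaturases Fads1 and Fads2 and their neighbour Fads3, all within chr19:10041569-10196877, were low in gland-like cells. Fads2, which starts the desaturation of essential fatty acids, had wounded levels of 2.96 CPM in Basal, 1.81 in Suprabasal, 1.15 in Regeneration, 0.94 in Wound_Stress, 102 in Rectum, 24.3 in Hybrid and 0 in gland-like cells. Its normal levels were 0.68 CPM in Anal Canal, 0.37 in Basal, 0 in Suprabasal, 18.5 in Rectum and 0.50 in gland-like cells. Rectum cells were highest in both libraries. Fads1, the next desaturase of that path, had low levels throughout, with 4.57 CPM in Anal Canal, 4.44 in Basal, 1.31 in Suprabasal, 7.1 in Rectum and 1.74 in gland-like cells. After the wound Fads1 had 4.18 CPM in Basal, 1.81 in Suprabasal, 1.69 in Regeneration, 1.47 in Wound_Stress, 8.51 in Rectum, 14.2 in Hybrid and 0.46 in gland-like cells, with 41.1 CPM in fibroblast-like cells. Fads3 had 14.2 CPM in Anal Canal, 0 in Basal, 0.44 in Suprabasal, 14.2 in Rectum and 0 in gland-like cells. Wounded Fads3 levels were 8.36 CPM in Basal, 0.43 in Suprabasal, 0.23 in Regeneration, 0 in Wound_Stress, 12.9 in Rectum, 6.07 in Hybrid and 0.15 in gland-like cells, and 0 UMIs in normal gland-like cells made its log2 ratio there a bound of -3.28 against 3 UMIs. Fads6, whose substrate is less well known, went the other way, with 0.23 CPM in Anal Canal, 0.37 in Basal, 3.5 in Suprabasal, 0 in Rectum and 8.93 in gland-like cells. Its wounded levels were 1.05 CPM in Basal, 1.47 in Suprabasal, 8.0 in Regeneration, 11.3 in Wound_Stress, 1.22 in Rectum, 2.02 in Hybrid and 23.3 in gland-like cells, and its gland-like log2 ratios were 3.17 (2.13 to 4.34) and 2.21 (1.9 to 2.51).

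The 6 elongases, which lengthen fatty acids by steps, were expressed by different groups. Elovl3, an elongase of sebaceous glands and brown fat, was a gland gene with 0.46 CPM in Anal Canal, 4.07 in Basal, 0.88 in Suprabasal, 0 in Rectum and 138 in gland-like cells. Wounded levels were 1.22 CPM in Basal, 8.47 in Suprabasal, 36.1 in Regeneration, 25.7 in Wound_Stress, 3.89 in Rectum, 10.8 in Hybrid and 399.5 in gland-like cells, and the gland-like intervals did not overlap those of any deposited cluster. Elovl4, which makes the very long fatty acids of the skin barrier, had 2 sites of expression. Its normal levels were 13.9 CPM in Anal Canal, 14.4 in Basal, 134 in Suprabasal, 0 in Rectum and 270.0 in gland-like cells, and its wounded levels were 8.19 CPM in Basal, 134 in Suprabasal, 11.8 in Regeneration, 28.4 in Wound_Stress, 1.95 in Rectum, 15.5 in Hybrid and 113 in gland-like cells. Suprabasal and gland-like cells were the only ones of these groups above 100 CPM, in both libraries. Elovl1 was broadly expressed, with 93.6 CPM in Anal Canal, 52.5 in Basal, 95.5 in Suprabasal, 48.3 in Rectum and 71.7 in gland-like cells. Wounded cells had Elovl1 at 55.2 CPM in Basal, 53.1 in Suprabasal, 23.7 in Regeneration, 28.7 in Wound_Stress, 50.6 in Rectum, 52.6 in Hybrid and 55.9 in gland-like cells. Elovl5, of the polyunsaturated path, had 19.2 CPM in Anal Canal, 12.6 in Basal, 25 in Suprabasal, 45.4 in Rectum and 26.5 in gland-like cells. After the wound Elovl5 had 14.6 CPM in Basal, 14.4 in Suprabasal, 21.8 in Regeneration, 11.9 in Wound_Stress, 9.97 in Rectum, 10.8 in Hybrid and 29.9 in gland-like cells, and the endothelial-like cells were above all of these with 186 CPM (112 to 290.5) and 111 CPM (64.5 to 177). Elovl6, which turns palmitate into stearate, had 26.7 CPM in Anal Canal, 15.2 in Basal, 21.5 in Suprabasal, 2.84 in Rectum and 24.8 in gland-like cells. Wounded Elovl6 levels were 39 CPM in Basal, 15.6 in Suprabasal, 6.69 in Regeneration, 6.97 in Wound_Stress, 9.97 in Rectum, 35.1 in Hybrid and 18 in gland-like cells, highest in Basal and Hybrid among the deposited clusters. Elovl7 was low in the gland, with 23.1 CPM in Anal Canal, 13.3 in Basal, 57.4 in Suprabasal, 54 in Rectum and 8.93 in gland-like cells. The wounded library gave 28.4 CPM in Basal, 31.8 in Suprabasal, 2.38 in Regeneration, 2.95 in Wound_Stress, 58.6 in Rectum, 20.2 in Hybrid and 1.84 in gland-like cells, and log2 ratios in gland-like cells of -1.77 (-2.31 to -1.27) and -3.42 (-4.38 to -2.61).

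Wax ester synthesis separated its reductases. Far2, a reductase that makes fatty alcohols and is known from sebaceous and meibomian glands (ENSMUSG00000030303, chr6:148047259-148182758), had 1.37 CPM in Anal Canal, 1.48 in Basal, 0.44 in Suprabasal, 2.84 in Rectum and 122 in gland-like cells. After the wound it had 1.39 CPM in Basal, 3.54 in Suprabasal, 41.9 in Regeneration, 27.2 in Wound_Stress, 4.62 in Rectum, 6.74 in Hybrid and 341 in gland-like cells. Far1, its paralogue, was within 3-fold of the same level everywhere among the deposited clusters, with 73 CPM in Anal Canal, 39.9 in Basal, 29.4 in Suprabasal, 58.2 in Rectum and 31 in gland-like cells. Far1 after the wound was at 61.5 CPM in Basal, 36.1 in Suprabasal, 36 in Regeneration, 36.1 in Wound_Stress, 47.2 in Rectum, 41.8 in Hybrid and 19 in gland-like cells. Gland-like cells were the lowest of these 7 wounded groups for Far1 and the highest for Far2, with log2 ratios of -1.09 (-1.37 to -0.83) and 4.16 (4.05 to 4.28). The acyltransferases that join fatty alcohols to fatty acids lie near each other on chromosome X. Awat1 (chrX:100572251-100578205) had 0.23 CPM in Anal Canal, 0.74 in Basal, 2.19 in Suprabasal, 0 in Rectum and 44.4 in gland-like cells, and in the wounded library 0.17 CPM in Basal, 1.3 in Suprabasal, 1.69 in Regeneration, 5.23 in Wound_Stress, 0 in Rectum, 0 in Hybrid and 32.4 in gland-like cells. Awat2 (chrX:100402221-100442717) had 1.37 CPM in Anal Canal, 2.96 in Basal, 3.94 in Suprabasal, 0 in Rectum and 33.7 in gland-like cells, and in the wounded library 0.70 CPM in Basal, 2.94 in Suprabasal, 7.61 in Regeneration, 9.11 in Wound_Stress, 1.22 in Rectum, 6.07 in Hybrid and 26.9 in gland-like cells. Both were highest in gland-like cells of both libraries, Awat1 with log2 ratios of 5.8 (4.79 to 7.04) and 4.19 (3.81 to 4.59).

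Of the triglyceride enzymes, both that add the third fatty acid were past 2-fold higher in gland-like cells of both libraries. Dgat2 had 27.2 CPM in Anal Canal, 22.2 in Basal, 84.6 in Suprabasal, 24.1 in Rectum and 137 in gland-like cells. Wounded Dgat2 levels were 26 CPM in Basal, 41 in Suprabasal, 46.1 in Regeneration, 52.5 in Wound_Stress, 19.7 in Rectum, 18.2 in Hybrid and 135 in gland-like cells, so Suprabasal cells came next to the gland in the normal library and Wound_Stress cells in the wounded one. Dgat1 had 17.8 CPM in Anal Canal, 17.7 in Basal, 15.3 in Suprabasal, 22.7 in Rectum and 52.8 in gland-like cells. Its wounded levels were 12.5 CPM in Basal, 12.5 in Suprabasal, 21.7 in Regeneration, 19.4 in Wound_Stress, 19.9 in Rectum, 16.9 in Hybrid and 94.9 in gland-like cells, with gland-like log2 ratios of 1.59 (1.29 to 1.88) and 2.45 (2.3 to 2.61). Lpin1, a phosphatidate phosphatase, had 2.74 CPM in Anal Canal, 9.61 in Basal, 4.38 in Suprabasal, 9.94 in Rectum and 22.6 in gland-like cells. After the wound it had 4.18 CPM in Basal, 4.92 in Suprabasal, 49.8 in Regeneration, 13.5 in Wound_Stress, 7.06 in Rectum, 8.09 in Hybrid and 24.9 in gland-like cells, and Regeneration cells, not gland-like cells, were the highest. Gpam, the mitochondrial acyltransferase that starts the path, was lower throughout the normal library. It had 1.14 CPM in Anal Canal, 1.85 in Basal, 0.88 in Suprabasal, 0 in Rectum and 6.7 in gland-like cells, and after the wound 9.76 CPM in Basal, 10.2 in Suprabasal, 33.2 in Regeneration, 49.9 in Wound_Stress, 14.8 in Rectum, 12.8 in Hybrid and 123 in gland-like cells. Agpat2, the acyltransferase that follows Gpam, had 33.1 CPM in Anal Canal, 19.6 in Basal, 6.57 in Suprabasal, 65.3 in Rectum and 17.6 in gland-like cells. Agpat2 in wounded cells was at 24.4 CPM in Basal, 12.3 in Suprabasal, 11.5 in Regeneration, 13.3 in Wound_Stress, 46.7 in Rectum, 12.8 in Hybrid and 15.2 in gland-like cells, with Rectum highest among these in both libraries. Mogat1, a monoacylglycerol acyltransferase, had 10 UMIs in all, at most 0.88 CPM in any group, and was too rare to compare.

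The acyl-CoA synthetases, which activate fatty acids, differed in where they were expressed. Acsl1, an isoform of liver, fat and heart, was lowest in the gland. It had 26.2 CPM in Anal Canal, 13.3 in Basal, 43.8 in Suprabasal, 29.8 in Rectum and 2.73 in gland-like cells, and after the wound 38.5 CPM in Basal, 29.5 in Suprabasal, 3.69 in Regeneration, 2.14 in Wound_Stress, 55 in Rectum, 31.7 in Hybrid and 1.69 in gland-like cells. Acsl5 and Acsbg1 were highest in the gland. Acsl5 had 66 CPM in Anal Canal, 49.5 in Basal, 46 in Suprabasal, 69.6 in Rectum and 178 in gland-like cells, and after the wound 48.1 CPM in Basal, 31.5 in Suprabasal, 80.0 in Regeneration, 91.3 in Wound_Stress, 43.1 in Rectum, 40.5 in Hybrid and 389 in gland-like cells. Acsbg1, the bubblegum synthetase for very long chains (ENSMUSG00000032281, chr9:54604877-54661870), had 37.2 CPM in Anal Canal, 41.8 in Basal, 12.7 in Suprabasal, 0 in Rectum and 214 in gland-like cells. In the wounded library it had 13.9 CPM in Basal, 13.9 in Suprabasal, 114 in Regeneration, 148 in Wound_Stress, 7.06 in Rectum, 18.2 in Hybrid and 210.2 in gland-like cells. Acsl4, which prefers arachidonate, had 11 CPM in Anal Canal, 104 in Basal, 71.4 in Suprabasal, 8.52 in Rectum and 104 in gland-like cells. Wounded Acsl4 levels were 13.2 CPM in Basal, 98.4 in Suprabasal, 108 in Regeneration, 141 in Wound_Stress, 14.6 in Rectum, 21.6 in Hybrid and 188 in gland-like cells. The cells named Basal thus equalled the gland-like cells in the normal library and were the lowest of these groups in the wounded one. The clusters named Basal in the libraries also differed in other genes, as given below, so this is not a change in the same cells. Acsl3 had 23.3 CPM in Anal Canal, 19.6 in Basal, 18 in Suprabasal, 80.9 in Rectum and 17.4 in gland-like cells. Its wounded levels were 35.7 CPM in Basal, 30.2 in Suprabasal, 42.2 in Regeneration, 31.8 in Wound_Stress, 108 in Rectum, 45.9 in Hybrid and 17.5 in gland-like cells, and Rectum was highest in both libraries.

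Droplet coat genes were uneven. Plin2, the perilipin of droplets in most tissues (ENSMUSG00000028494, chr4:86648386-86670060), had 16.2 CPM in Anal Canal, 218 in Basal, 60.9 in Suprabasal, 52.5 in Rectum and 1081 in gland-like cells. After the wound it had 36.6 CPM in Basal, 99.4 in Suprabasal, 976 in Regeneration, 365 in Wound_Stress, 97.8 in Rectum, 126 in Hybrid and 850.2 in gland-like cells, and Regeneration cells were above the gland-like cells. Without the Regeneration cells that joined gland-like clusters, described below, this order was reversed. Cidea, which enlarges droplets by fusion in brown fat and sebaceous glands, had 0.91 CPM in Anal Canal, 10.4 in Basal, 40.3 in Suprabasal, 2.84 in Rectum and 192 in gland-like cells. Cidea after the wound was at 4.7 CPM in Basal, 50.5 in Suprabasal, 117 in Regeneration, 64.2 in Wound_Stress, 3.65 in Rectum, 15.5 in Hybrid and 622 in gland-like cells, and gland-like cells were highest in both libraries. Plin3 was even, with 43.1 CPM in Anal Canal, 58.4 in Basal, 56.5 in Suprabasal, 68.2 in Rectum and 64 in gland-like cells. After the wound Plin3 had 40.4 CPM in Basal, 51.7 in Suprabasal, 47.2 in Regeneration, 43.7 in Wound_Stress, 57.4 in Rectum, 35.7 in Hybrid and 44.1 in gland-like cells. Cideb, of liver and intestine, was found in Rectum, with 0 CPM in Anal Canal, 0 in Basal, 0 in Suprabasal, 24.1 in Rectum and 0.25 in gland-like cells, and after the wound 0 CPM in Basal, 0.95 in Suprabasal, 0.54 in Regeneration, 0.40 in Wound_Stress, 11.9 in Rectum, 3.37 in Hybrid and 0 in gland-like cells. The fat cell forms were nearly absent. Plin1, with 35 UMIs in all, stayed at or below 1.74 CPM in the deposited clusters and gland-like cells of both libraries. Plin4 had no UMI in any normal deposited cluster and 1.24 CPM in gland-like cells, and after the wound it had 0 CPM in Basal, 0 in Suprabasal, 0.77 in Regeneration, 1.61 in Wound_Stress, 0 in Rectum, 0 in Hybrid and 0.61 in gland-like cells, with 16.8 and 14.4 CPM in smooth muscle or pericyte-like cells. Plin5 had 0 CPM in Anal Canal, 0.74 in Basal, 0 in Suprabasal, 0 in Rectum and 6.94 in gland-like cells, and after the wound 0.17 CPM in Basal, 0 in Suprabasal, 1.77 in Regeneration, 3.75 in Wound_Stress, 0.24 in Rectum, 0 in Hybrid and 4.15 in gland-like cells. Cidec had 0 CPM in Anal Canal, 0 in Basal, 0 in Suprabasal, 0 in Rectum and 2.73 in gland-like cells, and after the wound 0 CPM in Basal, 0.17 in Suprabasal, 2.0 in Regeneration, 1.61 in Wound_Stress, 0.49 in Rectum, 0 in Hybrid and 6.6 in gland-like cells. Plin4, Plin5 and Cidec were thus present in the gland at a small fraction of the level of Plin2.

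Both transcription factors were expressed in the gland. Pparg (ENSMUSG00000000440, chr6:115360951-115490399) had 2.28 CPM in Anal Canal, 16.3 in Basal, 1.75 in Suprabasal, 32.7 in Rectum and 106 in gland-like cells. After the wound it had 5.57 CPM in Basal, 8.21 in Suprabasal, 85.7 in Regeneration, 74.4 in Wound_Stress, 22.1 in Rectum, 17.5 in Hybrid and 77.7 in gland-like cells. Gland-like cells were therefore far above the deposited cells in the normal library, at 3.72 (3.38 to 4.08), but within 2-fold in the wounded library, at 0.82 (0.67 to 0.96), where Regeneration was highest. Srebf1, which encodes SREBP1, had 28.1 CPM in Anal Canal, 80.2 in Basal, 63.1 in Suprabasal, 58.2 in Rectum and 182 in gland-like cells. After the wound Srebf1 was at 19.3 CPM in Basal, 40.2 in Suprabasal, 76.4 in Regeneration, 114 in Wound_Stress, 30.9 in Rectum, 25.6 in Hybrid and 131 in gland-like cells. The fatty acid binding proteins were unlike each other. Fabp4, of fat cells and capillaries, had 2252 and 3232 CPM in endothelial-like cells. Fabp4 was otherwise low, with 0.23 CPM in Anal Canal, 0.37 in Basal, 0 in Suprabasal, 0 in Rectum and 1.24 in gland-like cells, and after the wound 0 CPM in Basal, 0.95 in Suprabasal, 1.38 in Regeneration, 1.34 in Wound_Stress, 0.97 in Rectum, 5.39 in Hybrid and 1.23 in gland-like cells. Fabp5, the epidermal form, was the most abundant gene of the list in every deposited cluster but normal Rectum, and in gland-like cells. It had 3256 CPM in Anal Canal, 713 in Basal, 3643 in Suprabasal, 48.3 in Rectum and 2441 in gland-like cells, and after the wound 7444 CPM in Basal, 4217 in Suprabasal, 3637 in Regeneration, 2271 in Wound_Stress, 538 in Rectum, 3130.2 in Hybrid and 14728 in gland-like cells.

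**Figure D2:**
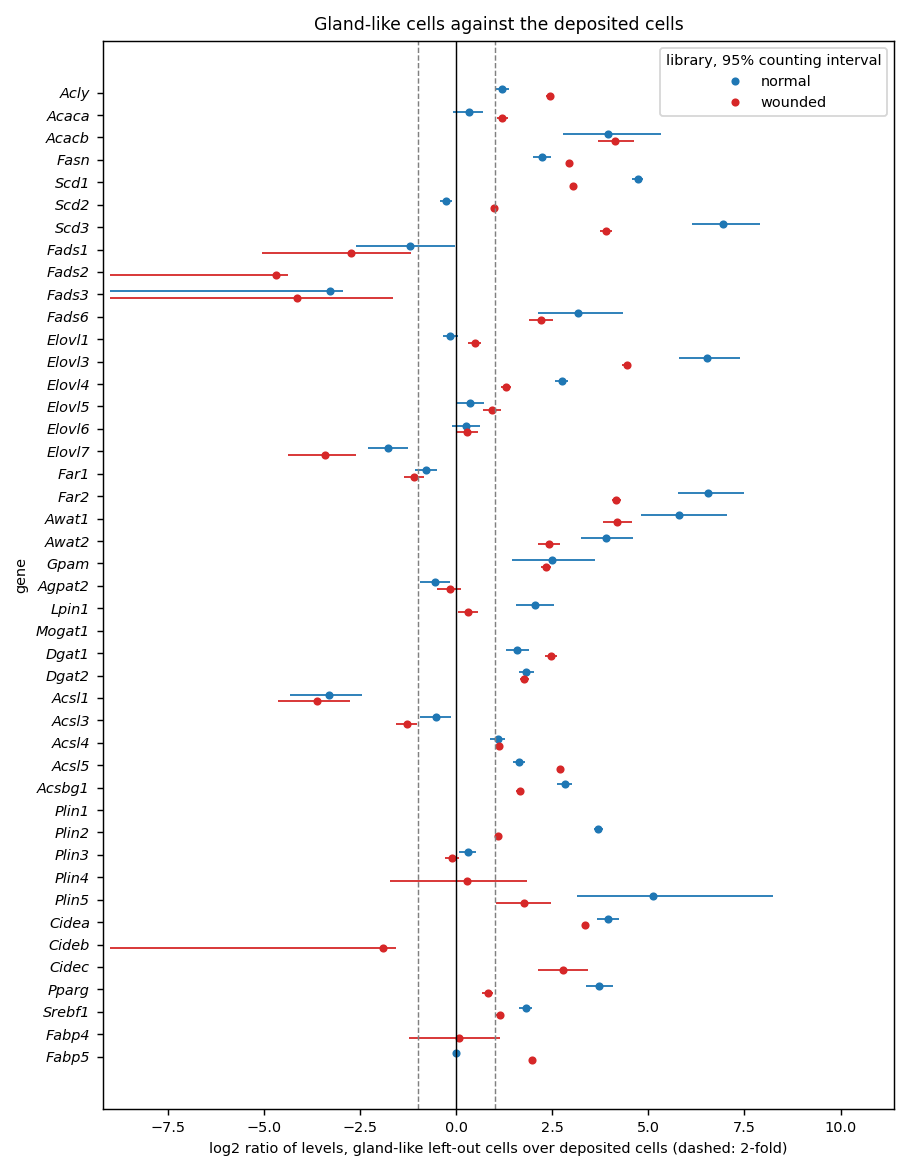
Log2 ratio of the level in gland-like left-out cells over all deposited cells (x axis) for each gene with at least 20 UMIs (y axis), with exact 95% counting intervals, in the normal (blue) and wounded (red) library. Points for groups with 0 UMIs are bounds. Scd3, Elovl3 and Far2 lie above 6 in the normal library, while Acsl1, Elovl7, Fads1 and Fads3 lie below -1 in both.

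Leaving the Regeneration and Wound_Stress clusters out of the comparison cells, a choice made after these data were seen, gave 26 of 41 genes past 2-fold higher in wounded gland-like cells (6.96% of all genes). It moved Pparg to 2.87 (2.64 to 3.09), Plin2 to 3.32 (3.25 to 3.4) and Scd1 to 5.27 (5.2 to 5.35), beside normal ratios of 3.72, 3.70 and 4.72.

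Promoter sequences of 5 of the gland genes are shown because the motif most common among the members stands in them in different numbers and places. All 5 were called higher in gland-like cells of both libraries, though their levels differed among the gland-like clusters described below. They are from RefSeq on GRCm38.p6 and run from 250 bases before to 50 bases after a start, 5′ to 3′ on the strand of the gene, and capitals mark CCAAT or its reverse complement ATTGG (the letters bound by NF-Y), CACGTG (an E-box) and TCACNCCAC (a sterol regulatory element), searched on both strands. Fasn is at chr11:120824498-120824797, minus strand, Acsbg1 at chr9:54661836-54662135, minus strand, Plin2 at chr4:86670010-86670309, minus strand, Far2 at chr6:148047166-148047465, plus strand and Awat1 at chrX:100571997-100572296, plus strand.
Fasn: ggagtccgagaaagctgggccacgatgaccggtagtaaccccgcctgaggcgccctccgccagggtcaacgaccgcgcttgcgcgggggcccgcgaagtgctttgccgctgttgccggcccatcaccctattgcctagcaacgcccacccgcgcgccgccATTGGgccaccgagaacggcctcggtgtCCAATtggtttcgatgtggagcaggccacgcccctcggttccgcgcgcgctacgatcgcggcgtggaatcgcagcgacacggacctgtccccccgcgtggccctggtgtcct
Acsbg1: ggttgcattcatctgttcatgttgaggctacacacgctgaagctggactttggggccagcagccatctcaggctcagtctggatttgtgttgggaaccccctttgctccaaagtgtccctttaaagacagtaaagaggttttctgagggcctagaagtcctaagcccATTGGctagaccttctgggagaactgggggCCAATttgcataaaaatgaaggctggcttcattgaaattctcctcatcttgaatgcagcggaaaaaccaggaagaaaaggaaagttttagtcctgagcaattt
Plin2: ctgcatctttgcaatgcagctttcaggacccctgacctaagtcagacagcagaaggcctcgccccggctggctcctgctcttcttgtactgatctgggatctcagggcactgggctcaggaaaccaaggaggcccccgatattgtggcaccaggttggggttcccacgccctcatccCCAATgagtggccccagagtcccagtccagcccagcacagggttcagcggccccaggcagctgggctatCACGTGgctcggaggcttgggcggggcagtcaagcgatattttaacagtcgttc
Far2: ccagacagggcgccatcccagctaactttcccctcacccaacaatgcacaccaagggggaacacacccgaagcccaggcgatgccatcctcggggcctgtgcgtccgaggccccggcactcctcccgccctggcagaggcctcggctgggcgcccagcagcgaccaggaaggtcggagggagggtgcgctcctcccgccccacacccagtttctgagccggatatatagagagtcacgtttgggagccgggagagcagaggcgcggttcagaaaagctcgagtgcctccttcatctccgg
Awat1: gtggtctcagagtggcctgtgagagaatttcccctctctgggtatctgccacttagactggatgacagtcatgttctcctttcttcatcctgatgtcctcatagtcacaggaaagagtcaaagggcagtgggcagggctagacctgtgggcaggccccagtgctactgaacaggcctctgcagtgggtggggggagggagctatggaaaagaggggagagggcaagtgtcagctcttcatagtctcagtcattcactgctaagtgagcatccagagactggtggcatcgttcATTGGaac

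Fasn and Acsbg1, both past 2-fold higher in gland-like cells of both libraries (Acsbg1 at 2.82 (2.63 to 3.02) and 1.66 (1.57 to 1.75)), each held 2 matches to CCAAT, beginning at -90 and -62 for Fasn and at -83 and -53 for Acsbg1 from the start. A pair or more was in 11.5% of all promoters and in 8 of the 45 member promoters. The others were those of Pparg and Plin5, of Elovl5, which was within 2-fold, and of Acsl1, Fads3 and Far1, which were lower in wounded gland-like cells, so that genes with pairs went both ways. Plin2 held 1 at -73 and also an E-box, Awat1 held 1 inside the transcribed part, and Far2 held no match. Of the 44 genes 35 had at least 1 promoter in the table, 45 promoters in all. CCAAT was in 25 of these 45 promoters, of 22 genes, and in 37.4% of all 32841 promoters of the same length. The E-box was in 3 of the 45 promoters against 7.15% of all promoters, and the sterol regulatory element in 1, a second start of Acsl1, against 1.24%. These matches are letters in a window and were not tested as binding sites.

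The normal gland-like cells were themselves not uniform. They formed 3 clusters without use of the 44 genes, of 139, 127 and 68 cells, here numbered 0, 6 and 2. The smallest, cluster 2, had little of the basal keratin Krt5 (20.2 CPM, against 774 in cluster 0 and 428 in cluster 6) and nearly all of the Retn UMIs (282 against 0.50 and 3.31 CPM). In cluster 2, 22 of 34 members were past 2-fold above the other gland-like cells (6.28% of all genes), and none were past 2-fold below. Cluster 0 had 1 higher (5.68%) and 21 lower (4.49%), and cluster 6 had 0 higher (1.79%) and 14 lower (4.38%). Since clusters were drawn from the same cells, these counts are a description.

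Cluster 2 carried the long-chain and wax genes. Elovl4 was at 1252 CPM (1178 to 1330.1) there, against 8.07 in cluster 0 and 15.7 in cluster 6. Awat1 was at 209 CPM (179 to 242), against 1.01 and 0.83 CPM. Scd3 was at 663 CPM (609 to 720.3), against 11.1 and 12.4 CPM, and Far2 was at 507 CPM (460.3 to 558), against 10.1 and 37.2 CPM. Cluster 2 was also highest for Scd1 (3681, 622 and 354 CPM), for Cidea (688, 53.5 and 74.4 CPM) and for Fasn (356, 41.4 and 58.7 CPM). In the same order of clusters 2, 0 and 6, Scd1 was found in 95%, 40.6% and 39.3% of cells thinned to 2000 UMIs, and Plin2 in 75.0%, 85.5% and 57.4%. Elovl7, low in the gland as a whole, was at 39.2 CPM in cluster 2 and at 1.01 and 0.83 CPM in the others.

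Other members did not follow this order. Plin2 was at 1324 CPM (1274 to 1376) in cluster 0, 658 CPM (613 to 705) in cluster 6 and 1116 CPM (1045 to 1189) in cluster 2. Pparg was highest in cluster 0, at 136 CPM (120.0 to 153), above 86.9 CPM (71 to 105) and 64.2 CPM (48.2 to 83.7). Acsbg1 was level, at 218, 216 and 203 CPM, within its counting intervals. Lpin1 was the gene past 2-fold higher in cluster 0, at 1.15 (0.49 to 1.83). Pparg, Acsbg1 and Plin2 were thus present in gland-like cells that had little of the wax and long-chain enzymes, while Cidea, another droplet gene, was low there with those enzymes.

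Wounded gland-like cells formed 2 clusters, numbered 0 (343 cells) and 5 (77 cells), and both had little Krt5 (14.5 and 40.2 CPM). Most members were at like levels in both, for example Scd1 at 2993 and 2661 CPM, Far2 at 352 and 300.1 CPM, and Cidea at 636 and 571 CPM. Elovl4, Awat1 and Elovl6 were past 2-fold higher in cluster 0, at 3.4 (2.74 to 4.14), 3.52 (2.27 to 5.16) and 2.13 (1.04 to 3.47), and Lpin1 in cluster 5, at 1.04 (0.56 to 1.52).

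**Figure D3:**
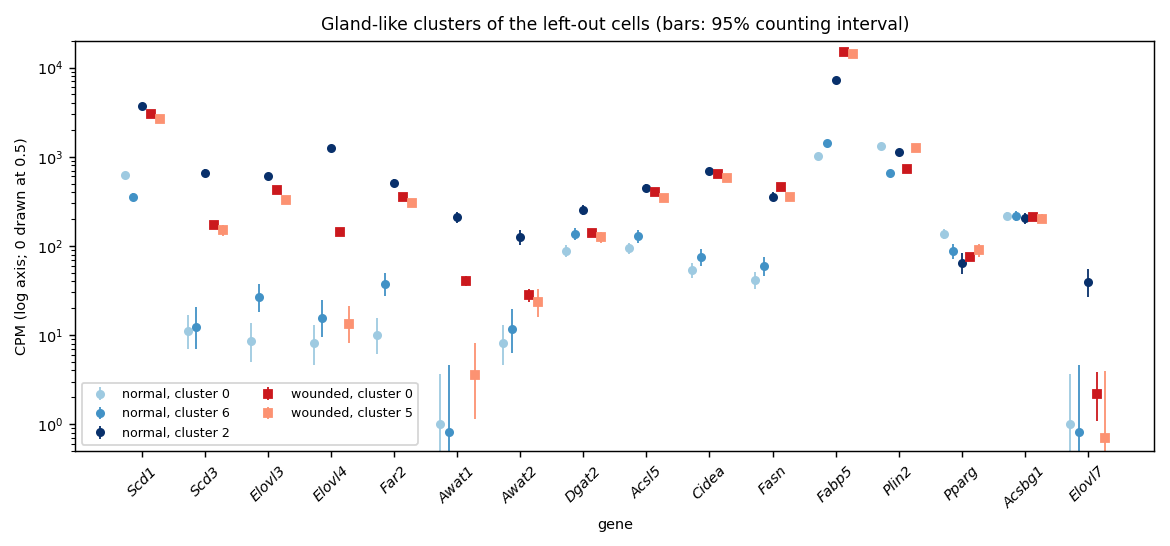
Levels in CPM (log axis) of 16 genes in the 3 normal (blue circles) and 2 wounded (red squares) gland-like clusters, with exact 95% Poisson intervals. Normal cluster 2 and both wounded clusters stand above normal clusters 0 and 6 for Scd1, Scd3, Elovl3, Far2, Cidea and Fasn, while Plin2, Pparg and Acsbg1 do not follow that order.

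Among the deposited clusters of the wounded library, Regeneration and Wound_Stress cells had gland genes among their higher members. In Regeneration 12 of 42 members were past 2-fold above the other deposited cells, against 4.09% of all genes, and 8 were below, against 17.4%. In Wound_Stress 8 of 42 were above, against 3.72%, and 8 below, against 16.4%. Acsbg1 and Fads6 were above in both clusters, and Acsl1, Elovl6, Elovl7, Fads1, Fads2, Fads3 and Cideb were below in both. Among these lowered genes Acsl1 stood at -2.93 (-3.38 to -2.51) in Regeneration and -3.52 (-4.33 to -2.81) in Wound_Stress, and Elovl7 at -3.51 (-4.08 to -2.99) and -2.98 (-3.66 to -2.37). With Fads1 and Fads3 they are also the genes that were lower in the gland-like cells of both libraries. The lowered members were 19.0% of those measured in each cluster, near the shares of all genes. In gland-like cells they were 10.8% in the normal and 19.0% in the wounded library, not above the shares of all genes there (17.8% and 25%).

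Regeneration was led by Lpin1, at 2.76 (2.54 to 2.99), Plin2, at 2.67 (2.62 to 2.71), Scd1, at 2.62 (2.57 to 2.68), and Far2, at 2.18 (1.97 to 2.39). Pparg stood at 1.7 (1.57 to 1.84) and Cidea at 1.65 (1.54 to 1.76), and Acacb, Scd3, Elovl3, Fads6, Acsbg1 and Cidec were also past 2-fold. Wound_Stress was led, among genes above 10 CPM, by Acsbg1, at 1.59 (1.48 to 1.69), Fads6, at 1.58 (1.17 to 1.99), Gpam, at 1.38 (1.2 to 1.57), and Srebf1, at 1.24 (1.12 to 1.36). Awat1, Awat2, Plin4 and Plin5 were also above, each under 10 CPM. Each cluster was compared with cells that included the other, which lowers the ratio of any gene high in both.

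The members did not stand in 1 ratio to the gland-like level in these clusters. In Regeneration Plin2 was 115% and Pparg 110% of its level in wounded gland-like cells, while Acsbg1 was 54.1%, Scd1 29.5%, Cidea 18.8%, Far2 12.3% and Elovl3 9.05%. Without the cells that joined gland-like clusters, described below, Plin2 in Regeneration was under the gland-like level. In Wound_Stress Pparg was 95.7%, Srebf1 87.1%, Acsbg1 70.6% and Plin2 42.9%, while Scd1 was 11.5%, Far2 7.99% and Elovl3 6.44%. In wounded Rectum cells Scd1 was 1.77%, Far2 1.36%, Elovl3 0.97% and Cidea 0.59% of the gland-like level, while Plin2 was 11.5% and Pparg 28.5%. In the normal library Rectum had the highest Pparg level of the deposited clusters, at 32.7 CPM. The level relative to the gland thus differed from gene to gene in all of these clusters, and the part of free gland RNA in the values was not tested.

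**Figure D4:**
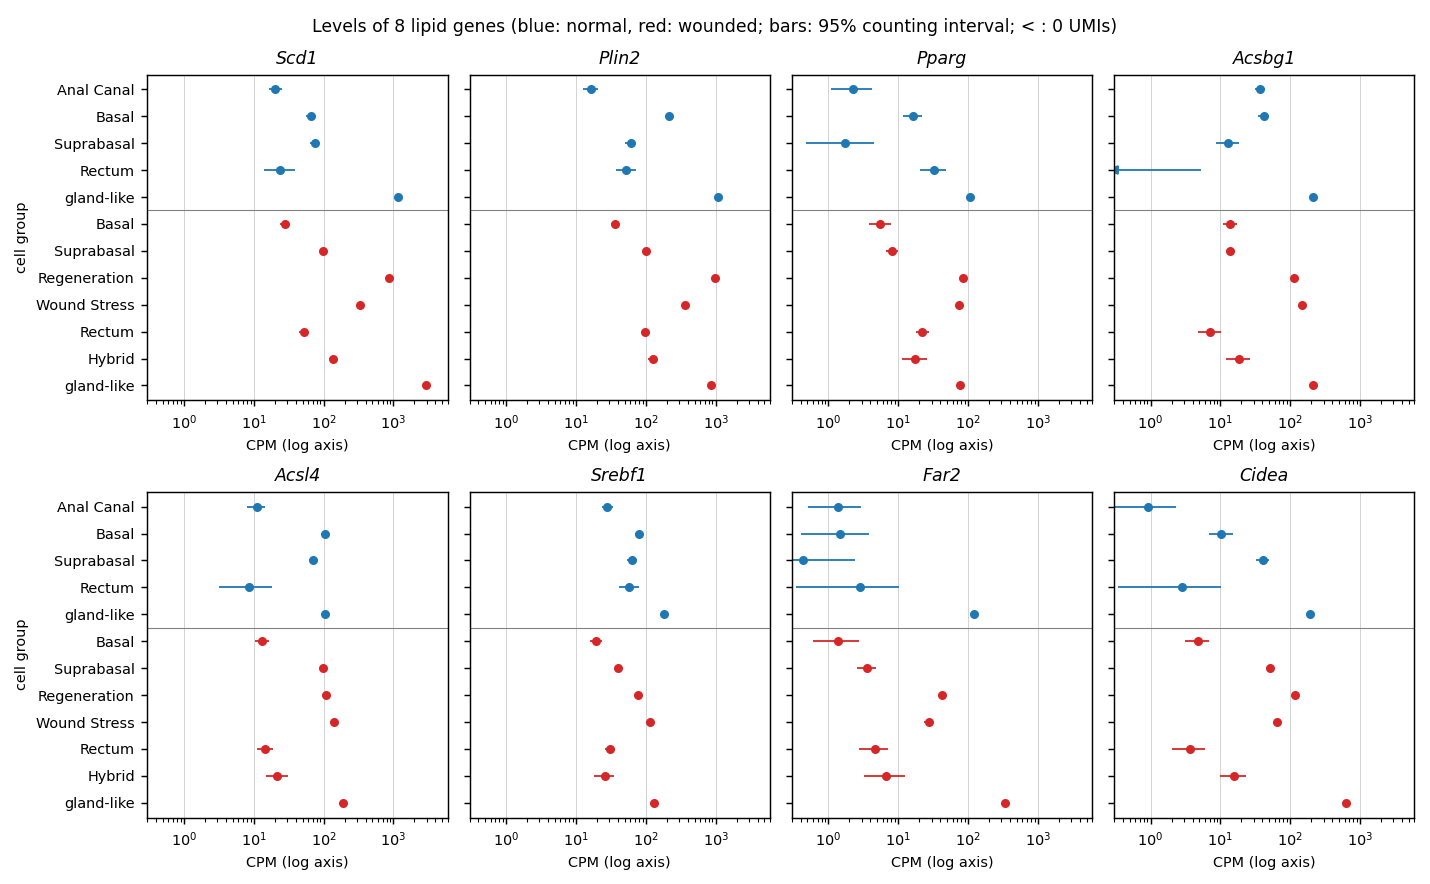
Levels in CPM (log axis) of 8 genes in the deposited clusters and the gland-like cells of the normal (blue) and wounded (red) library, with exact 95% Poisson intervals. Pparg in Regeneration and Wound_Stress and Plin2 in Regeneration lie at 95.7% to 115% of the wounded gland-like level, Acsbg1 lies at 54.1% and 70.6% and Plin2 in Wound_Stress at 42.9%, whereas Far2 and Cidea fall further below. All values include the named cells that joined gland-like clusters, without which Plin2 in Regeneration is under the gland-like level.

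Shares of cells followed these levels only in part after each cell was thinned to 2000 UMIs. A Plin2 UMI was found in 66.9% (63.9 to 69.9) of Regeneration cells, 47.6% (44.1 to 51) of Wound_Stress cells and 75.2% (70.8 to 79.2) of gland-like cells, with exact Clopper-Pearson 95% intervals, but in 15.3% (11.7 to 19.4) of Rectum and 5.14% (3.47 to 7.3) of Basal cells. Without thinning these shares were 89.3%, 82.9%, 99.5%, 51.1% and 20.8%. A Scd1 UMI was found in 45.8% (42.7 to 49) of Regeneration and 44.6% (41.2 to 48.1) of Wound_Stress cells, against 9.04% (6.27 to 12.5) of Rectum cells (78.8%, 80.5% and 23.2% without thinning). The first 2 shares were alike, although the Scd1 level was higher in Regeneration. For Pparg the shares in Regeneration, Wound_Stress and Rectum cells were 13.4% (11.3 to 15.7), 13.9% (11.6 to 16.5) and 4.24% (2.39 to 6.89), and 54.2%, 40.9% and 18.1% without thinning. Thinned gland-like cells had a Scd1 UMI in 94.7% (92.2 to 96.7) and a Pparg UMI in 14.6% (11.3 to 18.3). Thinning left out 5 Regeneration, 20 Wound_Stress, 43 Rectum, 9 Basal and 1 gland-like cell as too shallow, of median depths between 8532 and 14943 UMIs. The median mitochondrial share of UMIs was 5.91% in Regeneration and 11% in Wound_Stress cells, and its part in the values was not tested.

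As a sum, the anal gland markers were also higher in both clusters than in the other wounded deposited ones. All 10 had UMIs in both clusters, but also in every other wounded deposited cluster, so detection did not set them apart. The summed level was 4642 CPM in Regeneration and 5647 CPM in Wound_Stress, against 753 to 1678 CPM in the other wounded deposited clusters and 11213 CPM in gland-like cells. Between these clusters the sum was higher in Wound_Stress, as was Acsbg1, whereas Plin2 and Scd1 were higher in Regeneration. When all filter-passing cells of the library were clustered together, 153 of 991 Regeneration and 124 of 838 Wound_Stress cells joined gland-like clusters. Without them Plin2 was at 794 CPM in Regeneration instead of 976, Scd1 at 542 instead of 861, Far2 at 24.6 instead of 41.9, and Pparg at 81.0 instead of 85.7. This put Plin2 in Regeneration under the 850.2 CPM of the wounded gland-like cells. In Wound_Stress Plin2 was then at 355 instead of 365 CPM, Scd1 at 276 instead of 337, Pparg at 73.8 instead of 74.4 and Acsbg1 at 147 instead of 148. Acsbg1 was at 108 instead of 114 CPM in Regeneration. Without the joined cells of all clusters Acacb and Cidec were no longer called in Regeneration, at 0.53 (-0.47 to 1.48) and 1.07 (-0.14 to 2.24), nor Awat1 in Wound_Stress, at 0.90 (-0.14 to 1.86), where Plin4 then had fewer than 20 UMIs, while Pparg came past 2-fold there, at 1.17 (1.01 to 1.32). In all, Regeneration lost 2 calls and gained 1, and Wound_Stress lost 3 and gained 3, not all named here. This left 10 members higher and 9 lower in Regeneration and 8 and 8 in Wound_Stress, and the share of all genes was not recounted. Both clusters stayed above the highest of the other wounded deposited clusters, which was Hybrid for Plin2, Rectum for Pparg and Hybrid for Acsbg1. In a joined cluster of 186 cells, 153 were Regeneration cells, and Lpin1, Plin2 and Scd1 were among its top genes. Another joint cluster of 652 cells, 526 of them Wound_Stress, also matched the anal gland list best. Its mean log2 ratio of 0.75 was under the limit of 1, so its cells were kept. Whether gland-like cells remained in these levels was not tested.

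Set beside the Krt5-carrying gland-like clusters 0 and 6 of the normal library, pooled, 12 of 38 members were past 2-fold different in Regeneration (18.5% of all genes) and 6 of 34 in Wound_Stress (21.7%). Dgat2 was lower in both, at -1.2 (-1.4 to -1.01) and -1.02 (-1.23 to -0.80), and Gpam and Acaca were higher in both. These ratios set wounded against normal cells, so library and condition cannot be told apart. Gpam was at 9.76 CPM or more in every wounded deposited cluster, against 6.7 CPM in normal gland-like cells, so its rise was not particular to these clusters. Plin2 was lower in Wound_Stress, at -1.56 (-1.63 to -1.48), and within 2-fold in Regeneration. Across the 44 genes, Pearson's r of log2(CPM + 1) between Regeneration and these 2 normal clusters was 0.95 with each, against 0.85 with normal Basal, 0.72 with Suprabasal, 0.63 with Anal Canal, 0.47 with Rectum and 0.80 with gland-like cluster 2. For Wound_Stress it was 0.94 and 0.96, against 0.85, 0.74, 0.65, 0.43 and 0.82 in the same order. The genes of a library share its depth and pool, and these correlations are given as a description of the profile. These counts and correlations include the cells that joined gland-like clusters, and were not recomputed without them. Clusters 0 and 6 were picked for this after the clusters had been formed.

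Members were also higher in the other deposited clusters. Counted over all deposited clusters of the normal library, 16 of 29 members were past 2-fold higher in at least 1 cluster, against 32.8% of all genes. Over all deposited clusters of the wounded library 31 of 42 were, against 40.6%. Both wounded values cover Regeneration and Wound_Stress too, and the 31 include the members named above as higher there. They are therefore not values for the other clusters alone. Normal Basal cells had 4 of 29 members higher (7.19% of all genes), namely Plin2 at 2.7 (2.49 to 2.92), Acsl4 at 1.82 (1.56 to 2.08), Pparg at 1.7 (1.03 to 2.37) and Lpin1 at 1.29 (0.47 to 2.1). Of these 257 cells, 29 joined gland-like clusters when all cells were clustered together. Without them Plin2 fell from 218 to 109.9 CPM, Pparg from 16.3 to 4.89 CPM and Acsbg1 from 41.8 to 16.5 CPM, while Acsl4 was at 107 instead of 104 CPM. Without them the log2 ratio of Pparg over the other deposited cells was -0.04 (-1.16 to 0.96) and that of Lpin1 0.94 (-0.01 to 1.85), so that both calls were lost, whereas Plin2, at 1.71 (1.45 to 1.97), and Acsl4, at 1.86 (1.59 to 2.14), stayed past 2-fold.

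Suprabasal cells had 5 higher in the normal library (5.25% of all genes), Elovl4 at 3.38 (3.05 to 3.72), Cidea at 3.21 (2.63 to 3.82), Dgat2 at 1.75 (1.45 to 2.04), Elovl7 at 1.35 (1.02 to 1.69) and Scd1 at 1.04 (0.76 to 1.32). After the wound they had 2 of 42, under the share of all genes (6.01%). These were Elovl4 at 3.27 (3.11 to 3.42) and Elovl7 at 1.05 (0.85 to 1.25), against a set of cells that then included Regeneration and Wound_Stress. Anal Canal cells had 1 of 29 higher, under the share of all genes (6.7%), Fads3 at 2.87 (1.93 to 3.95), and with the gland-joining cells left out also Acsbg1, at 1.56 (1.14 to 2.0). Wounded Basal cells had 4 of 42, near the share of all genes (6.97%), namely Fads3, Elovl6, Acsl1 and Fabp5, the last at 1.22 (1.21 to 1.24). Leaving out the wounded cells that joined gland-like clusters put Elovl7 in Suprabasal, at 0.92 (0.72 to 1.12), and Acsl1 in Basal, at 0.96 (0.74 to 1.19), under 2-fold.

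In the normal library 7 of 29 members were higher in Rectum cells (15.3% of all genes), led by Scd2 at 2.66 (2.5 to 2.82), Pparg at 2.4 (1.63 to 3.12) and Acly at 2.36 (2.08 to 2.65), together with Acsl3, Fasn, Agpat2 and Elovl5. In the wounded library 9 of 42 were higher (17.1%), led by Fads2 at 5.38 (5.05 to 5.71), Cideb at 4.17 (3.46 to 4.92) and Fads3 at 2.96 (2.41 to 3.51), together with Elovl7, Fads1, Agpat2, Acsl1, Acsl3 and Acly. Acly, Agpat2 and Acsl3 were called in both. Hybrid cells, the shallowest deposited cluster with a median of 2390 UMIs, had 5 of 42 higher, near the share of all genes (11.2%). These were Fads1, Fads2, Fads3, Elovl6 and Fabp4. In Hybrid cells Fabp4 was at 5.39 CPM and the endothelial marker Lyve1 at 60.0 CPM, which was at most 1.3 CPM in any other wounded deposited cluster. The full list of endothelial markers, however, summed to 95.1 CPM in Hybrid and 105 CPM in wounded Suprabasal cells, where Fabp4 was lower. Enteroendocrine markers summed to 18539.5 CPM in Hybrid cells and inner root sheath markers to 1276 CPM. In the other wounded deposited clusters these sums were at most 11.7 CPM (Rectum) and 338 CPM (Basal). The part of endothelial, enteroendocrine or inner root sheath cells in the Hybrid levels was not tested. The sort stated for epithelial cells of the study excluded CD31, an endothelial surface protein. Without the named cells that joined gland-like clusters, Fads2 and Fads3 were no longer called in Hybrid, at 0.98 (0.45 to 1.47) and 1.11 (-0.06 to 2.08). Only 1 of the 316 Hybrid cells had joined, so most of the cells removed were comparison cells.

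Wounded and normal cells of the same name were compared next. The 2 libraries differ in condition, pool, Cell Ranger version and feature table at once. Mice to be wounded also received METACAM and anaesthesia, and the time from tamoxifen to sampling was longer for them. In the normal library alone, the authors removed further cells by Lgr5, Lhx2 and Tbx1, as hair follicle cells within the basal cluster. A difference between the libraries cannot be told apart from any of these. Gpam was past 2-fold higher in the wounded library under all 4 names compared, and Fabp5 under 3 of them. Fabp5 was also higher in wounded than in normal fibroblast-like (379.5 and 60.0 CPM) and endothelial-like cells (665 and 225 CPM), groups that are not epithelial.

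In gland-like cells 14 of 36 members were past 2-fold higher in the wounded library (8.25% of all genes) and 2 lower (16.9%). Higher were all 4 genes of acetyl-CoA and malonyl-CoA supply, with Fasn at 1.96 (1.82 to 2.11) and Acaca at 1.79 (1.46 to 2.14), and Scd1, Scd2, Fads6, Elovl3, Far2, Gpam, Acsl5, Cidea, Cidec and Fabp5. Lower were Elovl7, at -2.28 (-3.35 to -1.3), and Elovl4, at -1.25 (-1.39 to -1.11). This comparison sets 420 wounded cells with 20.1 CPM of Krt5 against 334 normal cells with 513 CPM, and the normal set included clusters 0 and 6. Against normal cluster 2 alone, which was chosen after these values were seen, 2 of 35 were higher (5.79%), Gpam and Fabp5, and 9 were lower (7.4%). The lowered genes were 4 elongases with Elovl4 at -3.46 (-3.6 to -3.33) and Elovl7 at -4.41 (-5.5 to -3.42), both Awat genes with Awat1 at -2.69 (-2.99 to -2.39), and Scd3, Acacb and Plin5. Fasn was then at 0.30 (0.12 to 0.47) and Scd1 at -0.33 (-0.39 to -0.28). Of the 14 genes above, Gpam and Fabp5 were thus the only ones past 2-fold higher against this cluster.

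In Basal cells 7 of 29 members were higher after the wound (14.5% of all genes) and 8 lower (13.3%). Lower were Acsl4 at -2.97 (-3.36 to -2.6), Plin2 at -2.58 (-2.81 to -2.35), Srebf1 at -2.05 (-2.4 to -1.72), Acsbg1 at -1.58 (-2.02 to -1.16), Pparg, Scd1, Lpin1 and Cidea. Higher were Fabp5 at 3.38 (3.32 to 3.45), Gpam, Acsl1 at 1.53 (1.02 to 2.08), Elovl6, Fasn, Elovl7 and Fads3, the last with no UMI in normal Basal cells. Without the named cells that joined gland-like clusters, 29 of them normal Basal cells, 6 members were higher and 4 lower. Of the calls above 6 were then lost, Acsbg1 at -0.24 (-0.82 to 0.36), Pparg at 0.19 (-0.84 to 1.32), Cidea at -0.30 (-1.3 to 0.78), Scd1 at -0.78 (-1.14 to -0.41), Lpin1 at -0.86 (-1.81 to 0.13) and Elovl7 at 0.91 (0.37 to 1.49). Acsl4, Plin2 and Srebf1 stayed lower, at -3.02 (-3.41 to -2.64), -1.59 (-1.86 to -1.32) and -1.86 (-2.23 to -1.5), and Elovl4 was added, at -1.01 (-1.66 to -0.35). The 2 clusters named Basal also differed in other genes, with Krt10 at 48.4 CPM in the normal and 1987 CPM in the wounded cells and Krt17 at 2265 and 381 CPM. Normal Anal Canal cells had 2228 and 704 CPM of these. Wounded Basal over normal Anal Canal cells gave 7 of 30 members past 2-fold in either direction (16.3% of all genes), with Acsl4 at 13.2 and 11 CPM and Srebf1 at 19.3 and 28.1 CPM.

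In Suprabasal cells, of 35 members 5 were higher (12.6% of all genes), namely Gpam, Elovl3, Far2, Pparg and Scd3, all at or below 10.2 CPM in the wounded cells, and 1 was lower (5.16%), Dgat2 at -1.05 (-1.29 to -0.80). In Rectum cells 4 of 30 were higher (7.08%), Fabp5 at 3.48 (2.99 to 4.01), Fads2 at 2.46 (1.67 to 3.38), Scd1 at 1.1 (0.39 to 1.91) and Gpam, and 3 were lower (5.32%), Elovl5 at -2.19 (-2.89 to -1.47), Scd2 at -1.23 (-1.39 to -1.07) and Cideb at -1.02 (-1.84 to -0.13). The normal Rectum cluster held 63 cells.

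**Figure D5:**
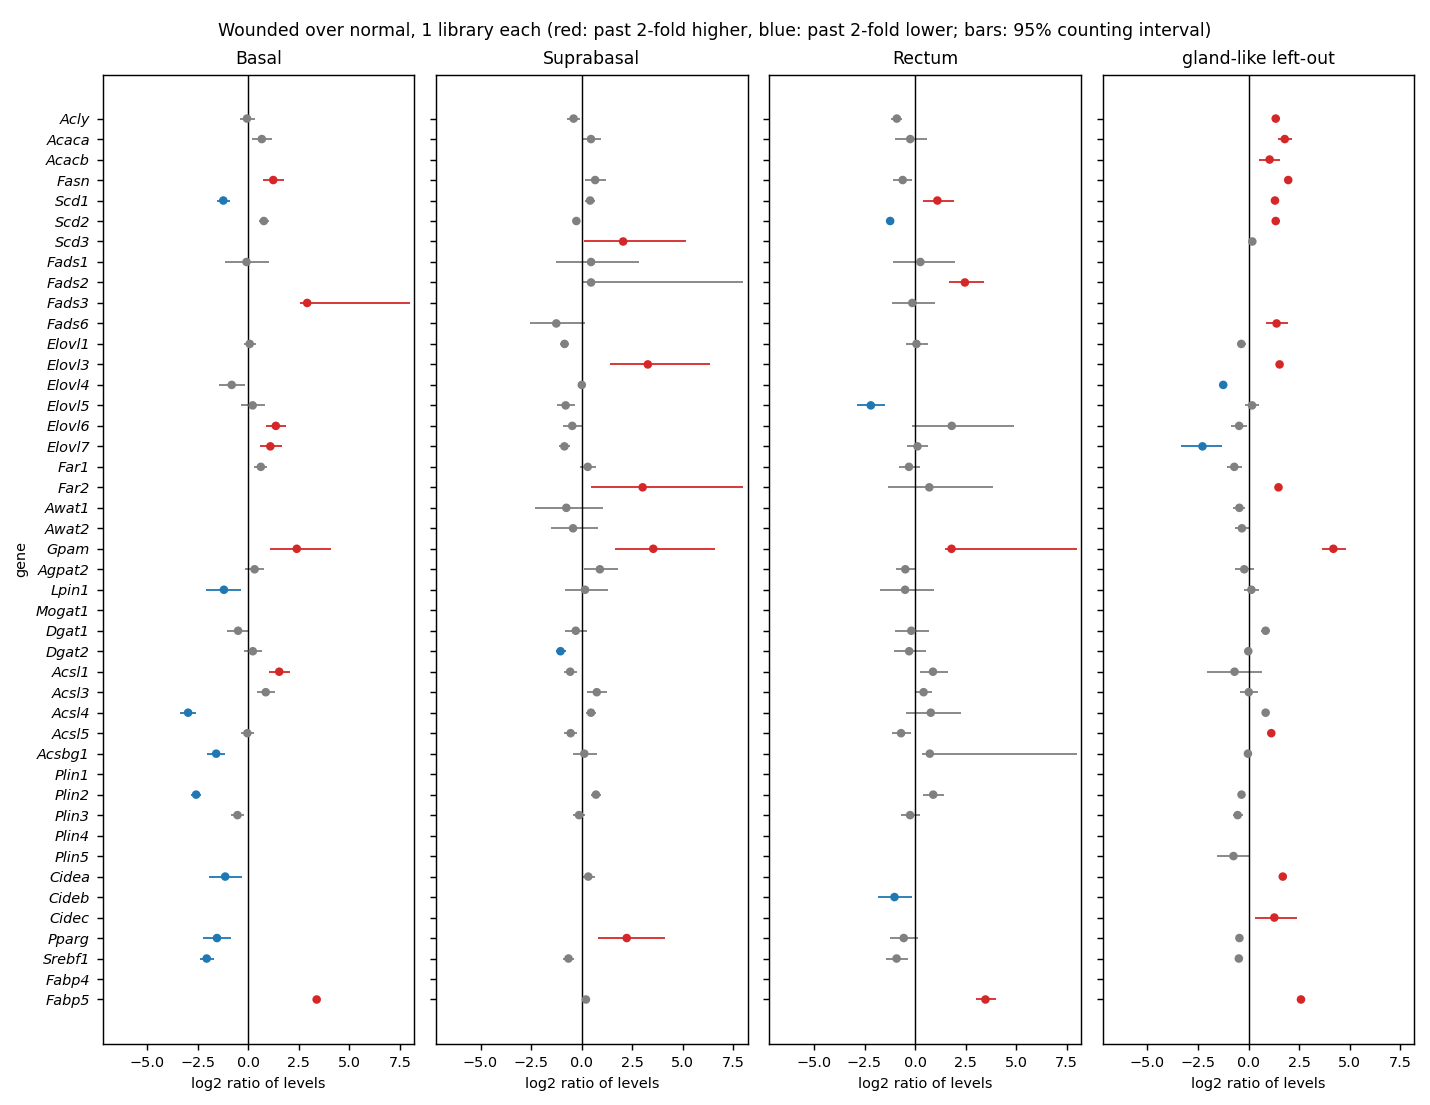
Log2 ratio of the level in wounded over normal cells (x axis) for each gene with at least 20 UMIs (y axis) in Basal, Suprabasal, Rectum and gland-like left-out cells, 1 library a condition, with exact 95% counting intervals. Red and blue mark genes past 2-fold higher and lower. Gpam is higher in all 4 panels, and Scd1, Scd2, Elovl7, Cidea and Pparg are called in opposite directions in different panels, but the Basal calls of Scd1, Elovl7, Cidea and Pparg are lost without the cells that joined gland-like clusters, and the gland-like call of Scd2 against normal gland-like cluster 2.

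Other genes of the pathway, in 7 lists of 61 genes set by function, were counted in the same way in gland-like over deposited cells. Lipid and steroid pathways had served the authors to name the gland, so these counts too are a description. Of the 52 measured in the normal library 27 were past 2-fold higher and 2 lower (7.97% and 17.8% of all genes), and of the 55 in the wounded library 25 were higher and 4 lower (5.09% and 25%). The same shares of all genes belong beside the count of each list in gland-like cells below. The elongation partners, which complete each elongation cycle, had 4 of 5 genes past 2-fold higher in both libraries and none lower. Tecr and Hsd17b12 led the normal library, at 2.42 (2.36 to 2.49) and 2.30 (2.18 to 2.42), and Hsd17b12 and Hacd2 the wounded one, at 2.81 (2.76 to 2.85) and 2.75 (2.64 to 2.86). Genes for acetyl-CoA and NADPH supply had 3 of 6 higher in the normal and 4 of 6 in the wounded library and none lower. They were led by Me1, the malic enzyme, and Acss2 before the wound, at 2.44 (2.26 to 2.62) and 2.07 (1.74 to 2.41), and by Slc25a1, the citrate carrier, and Me1 after it, at 2.31 (2.23 to 2.39) and 2.07 (1.98 to 2.15).

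The regulators had 5 of 10 higher and none lower in the normal library, led by Nr1h3, the LXRα receptor, at 2.91 (2.06 to 3.82), and Insig1, which retains the SREBP complex, at 2.75 (2.56 to 2.94). In the wounded library 3 of 11 were higher and 1 lower, with Mlxipl at -2.47 (-4.77 to -0.89) and Cebpa at 1.5 (1.40 to 1.59). Other glycerolipid and ester enzymes had 4 of 10 higher and none lower in the normal library and 5 higher and 1 lower of 10 in the wounded one. Soat1, which makes cholesteryl esters, led in both, at 86.3 against 4.96 CPM and at 535 against 34.8 CPM, followed by Fitm2, a droplet formation gene, at 2.79 (2.46 to 3.13) and 2.25 (2.12 to 2.37).

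Some genes that break lipids down were also higher. The lipolysis list had 2 of 5 higher in the normal and 3 of 6 in the wounded library and none lower, led by Mgll, the monoglyceride lipase, at 387 against 23.2 CPM and 1425 against 161 CPM, with Hilpda at 1.72 (1.44 to 2.01) in the normal and Pnpla2 at 1.19 (1.02 to 1.35) in the wounded library. Fatty acid oxidation genes had 6 of 10 higher in normal and 3 of 10 in wounded gland-like cells and none lower, led by Acaa2 at 431 against 145 CPM and 800.5 against 242 CPM, with Hadha at 1.39 (1.24 to 1.53) and Cpt2 at 1.41 (1.19 to 1.63) next. Uptake and binding genes went both ways, with 3 of 6 higher and 2 lower in the normal library and 3 of 7 higher and 2 lower in the wounded one. Cd36, a fatty acid transporter, was at 4.49 (3.01 to 6.44) and 4.37 (3.25 to 5.64) at levels under 10 CPM, Lpl at 3.05 (2.79 to 3.32) in the normal library, and Dbi, an acyl-CoA binding protein, at 72.6 against 1146 CPM in the wounded one.

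In Regeneration cells 10 of the 54 measured genes of these lists were past 2-fold higher than in the other deposited cells (4.09% of all genes) and 8 lower (17.4%). In Wound_Stress cells 3 of 54 were higher (3.72%) and 6 lower (16.4%), and these counts, like the lower count in Regeneration, were near or under the shares of all genes. Insig1 separated these clusters, at 151 against 22.3 CPM in Regeneration and 24.3 against 68.7 CPM in Wound_Stress.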

How the data were processed

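Single cells of the mouse anorectal junction were profiled with 10x 3′ chemistry, 1 library a condition. The authors aligned the reads to mm10 and deposited UMI counts per gene and cell made with Cell Ranger (3.1.0 in the file header of the normal library, 4.0.0 in that of the wounded one), and natural log tables of the cells kept after analysis in Seurat 3.2.2, which give the cluster names. The UMI counts were used for all levels. Cells with more than 200 and fewer than 5000 genes and under 25% mitochondrial UMIs were kept, as in the study. Left-out cells were clustered in scanpy 1.11.5 (2000 variable genes without members and pathway genes, 10 components, 20 neighbours, Leiden resolution 0.4) and named where at least 3 markers of a list were detected and the mean log2 ratio over deposited cells was at least 1. In the normal library 2 cells with over 1% immunoglobulin UMIs were set aside after seeing the data. Doublets were not removed. Scrublet marked 2 and 1 cells, too few to rely on, so an alternative leaves out the 6% with the highest scores. Summed UMIs were compared with exact binomial intervals, and shares with exact Clopper-Pearson intervals after thinning to 2000 UMIs. The binomial intervals were tried on simulated Poisson counts, which have no variation between cells. That trial could not show how well they suit pooled cells. Every member was described by role, with levels in all clusters unless it was both rare and uncalled, as were Plin1 and Mogat1, and the lists' genes with the largest ratios were named. Members and lists were chosen with earlier results of these data known. Whether the samples hold separate animals beyond their pools is not known, so no p-value was computed.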

Additional observations from a re-analysis of the deposited data

Results flagged for a closer look

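Members that were past 2-fold in opposite directions under different cell names, in wounded over normal cells, are given here as log2 ratios, and the differences between names were not tested. Scd1 was at -1.23 in Basal, 1.10 in Rectum and 1.31 in gland-like cells. Scd2 was at -1.23 in Rectum and 1.34 in gland-like cells. Elovl7 was at 1.09 in Basal and -2.28 in gland-like cells. Cidea was at -1.14 in Basal and 1.69 in gland-like cells, and Pparg was at -1.54 in Basal and 2.23 in Suprabasal cells. Without the cells that joined gland-like clusters the Basal values were -0.78 for Scd1, 0.91 for Elovl7, -0.30 for Cidea and 0.19 for Pparg, none past 2-fold, and the opposite directions that rest on Basal were no longer called. The gland-like values of Scd1, Scd2 and Cidea were not past 2-fold against normal gland-like cluster 2 alone.

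Barcodes dropped only for having 5000 or more genes differed between the libraries. The 86 such wounded barcodes had Scd1 at 537.0 CPM, below Regeneration cells (861 CPM), with Elovl3 at 47.4 and Far2 at 55.5 CPM. The 9 normal ones had Scd1 at 39.5 CPM, within the range of the normal deposited clusters (20.3 to 74.5 CPM). They had no UMI of Scd3, Elovl3, Far2, Awat1, Awat2 or Cidea.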

How the results depend on the processing

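Counts of members past 2-fold were recomputed with other UMI minimums, a fold of 1.5, per-cell means, a stricter mitochondrial limit, other cluster resolutions, joint clustering, without high doublet scores, from the deposited tables and over shared features, and under 3 comparisons added after seeing the data. Of 70 such counts 66 stayed within 1.5 times the reported one. The other cluster resolutions gave as many gland-like cells and the same counts (27, 32 and 16), so they add little to this number. Counts over the deposited clusters took in genes past 2-fold higher only, and the rest totalled both directions. The total hides shifts between directions, since wounded over normal gland-like cells went from 14 higher and 2 lower to 2 and 9 against normal gland-like cluster 2 alone, and Basal from 7 and 8 to 6 and 4 without the cells that joined gland-like clusters. The exceptions in the total were Suprabasal and Rectum in wounded over normal cells, where 6 and 7 members became 14 and 14 with a fold of 1.5, and 13 and 13 with the mean of per-cell CPM and no interval. A lower fold admits more genes, and the cause in the second case, which changed the averaging and the interval at once, was not tested. Of 48 shares of cells at 1000 or 4000 UMIs 40 left the interval at 2000 UMIs, as shares rise with depth. Genes below the limit set by 3 UMIs, up to 4.26 CPM in normal Rectum, could not be told from 0. No paired analysis was possible because each condition has 1 library and the labels share no second number. Leaving out a replicate could not be done for the same reason.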
